A study of Mus musculus with 25 samples.

Results

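Nuclear receptors are transcription factors, many of which are switched by small fat-soluble ligands, and this account follows 42 of their genes through mouse hepatocytes in which the Hippo pathway was overridden. The members are the rows of the count table that carry those 42 symbols, and the results rest on the 37 that reached at least 1 CPM (counts scaled to the size of the library) in at least 3 of the 25 libraries. All 37 were among the 12970 genes that could be tested, out of 37117 gene symbols in the table. At a minimum of 0.5 CPM in 3 libraries the same number of members passed, and 36 passed when the CPM was scaled by TMM (trimmed mean of M values, a correction of library size). The members just inside the rule were Nr4a3 and Esrrg with 3 libraries, Nr1i3 with 4 and Esrrb with 6. Nr4a3 passed only through 2 ApoYap Dox and 1 Lats1/2 KO library, and Esrrb through 3 ApoYap Dox, 2 Lats1/2 KO and 1 BL/6 ctrl library, so that their being measured at all depended on the groups in which they were high. Esrrg passed only through 1 ApoYap ctrl and 2 BL/6 AAV-Cre libraries, and so depended in part on a control library where it was high. Just outside it stood Vdr, the vitamin D receptor, with at most 0.885 CPM, and Hnf4g, with at most 0.441 CPM. Pgr, Nr5a1 and Nr0b1 had 0 counts in all 25 libraries together, which allows up to 0.0106 CPM (3 counts in 283654583).

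A nuclear receptor typically joins a DNA-binding domain of paired zinc fingers to a domain that holds the ligand, and many of the receptors of liver metabolism bind DNA together with a retinoid X receptor (RXR). In the liver they sense bile acids, oxysterols, fatty acids, foreign compounds, thyroid hormone, glucocorticoid and retinoic acid, and switch sets of metabolic genes in answer. Others, such as HNF4A, NR5A2 and the NR4A group, act with no known regulating hormone and serve as factors of cell identity or as early response genes.

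The study compared hepatocytes sorted from perfused and dissociated mouse livers in 7 groups, asking what overactive Yap, the coactivator held back by the LATS1 and LATS2 kinases, does to them. ApoYap Dox (n = 3) came from a strain labelled ApoE-rtTA, TRE-hYAP, in which doxycycline switches on human YAP, after 1 week of drinking water with 0.2 mg/ml doxycycline and 2.5% sucrose, and ApoYap ctrl (n = 4) from the same strain with no treatment. Lats1/2 KO (n = 3) came from mice with both alleles of Lats1 and of Lats2 floxed, 1 week after tail vein injection of an AAV8 vector with Cre recombinase under the hepatocyte-restricted TBG promoter, and Lats1/2 flox ctrl (n = 4) from that strain with no injection. BL/6 Dox (n = 4) and BL/6 AAV-Cre (n = 3) are C57BL/6 mice given the same water for 1 week or the same virus, here for 24 hours, and BL/6 ctrl (n = 4) are untreated C57BL/6 mice. The knockout therefore has no virus control at its own time, and no group had sucrose water alone. The labels give no sex, age, batch or time of day, and leave it unsaid whether replicates came from different animals, so the p-values cover only the spread among the samples at hand. Each library gave 8107539 to 16515330 counts, of which the 37 expressed members held 0.127 to 0.190%.

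Lats1 checks the knockout label. It was counted at 5.10, 4.79 and 2.97 CPM in Lats1/2 KO, against 13.9, 12.3, 12.98 and 14.9 CPM in Lats1/2 flox ctrl, a log2 change of −1.67 (adjusted p = 4.1e-06, SE 0.23). Lats2 stood at 7.70, 17.8 and 10.5 CPM in Lats1/2 KO, against 13.1, 12.9, 13.7 and 13.02 CPM in Lats1/2 flox ctrl, and was not called. The reads come from 3′ ends, and a tag outside the deleted part checks nothing. Lats2 was also higher by 1.5 in ApoYap Dox than in ApoYap ctrl (edgeR, adjusted p = 3.4e-07, SE 0.2). Why it was not called lower in the knockout was not tested. The YAP target Ccn2 rose by 6.69 in ApoYap Dox and by 6.51 in Lats1/2 KO. The libraries were labelled hepatocytes, and all 8 hepatocyte markers were counted in every group, with a sum of 46054 to 62652 CPM of the library total in ApoYap Dox, against 60287 to 75297 in ApoYap ctrl, and of 52846 to 58257 in Lats1/2 KO, against 59226 to 70094 in Lats1/2 flox ctrl. Markers of other liver cells were higher in the same libraries. The 15 markers of Kupffer cells and macrophages summed to 12240, 11750 and 20618 CPM in ApoYap Dox, against 84.0 to 202 in ApoYap ctrl, and to 794, 2106 and 912 CPM in Lats1/2 KO, against 77.4 to 243 in Lats1/2 flox ctrl, with 15 and 14 of the 15 called higher. All 10 markers of sinusoidal endothelium were called higher in both, with sums of 885 to 1703 CPM in ApoYap Dox, against 51.0 to 124 in ApoYap ctrl, and of 377 to 988 CPM in Lats1/2 KO, against 45.4 to 142 in Lats1/2 flox ctrl. Of 10 stellate cell markers 5 were called higher in ApoYap Dox and 9 in Lats1/2 KO, of 3 cholangiocyte markers tested 2 and 3, and of 3 neutrophil markers tested 3 and 2. The 6 lymphocyte markers were too low to be tested and summed to at most 2.95 CPM in any library, with Cd79a at 0 in Lats1/2 KO. Their part in each result on the receptors was not tested.

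In the untreated hepatocytes Hnf4a, Rora, Ppara and Rxra had the highest levels of the family. Because the libraries read 3′ ends, a count does not grow with transcript length, so levels of different genes are given in TMM-scaled CPM with no division by length. Over the 12 untreated libraries of the 3 strains Hnf4a stood highest at 306 ± 45.9 CPM (SD, n = 12), followed by Rora at 195 ± 25.04, Ppara at 167 ± 28.7 and Rxra at 149 ± 13.6 CPM. The lowest Hnf4a library, at 259 CPM, lay above the highest Rora library, at 233 CPM, while the ranges of Rora, Ppara and Rxra overlapped. Next came 8 members with means of 46.5 to 81.1 CPM, namely Nr2f2, Nr1h3, Nr3c1, Nr5a2, Nr1h4, Nr1i2, Thrb and Nr0b2, all below the lowest Rxra library at 113 CPM, and neighbours in this order overlapped in range. Nr4a1 ranged from 0.986 CPM in the lowest to 40.9 CPM in the highest untreated library. At the low end Nr2f1, Nr1i3, Esrrg, Esrrb and Nr4a3 averaged under 1 CPM, where 1 count is worth 0.0361 to 0.141 CPM. The low level of Nr1i3, the receptor CAR, carries a limit of its own, since its exons share 3304 bases with Tomm40l on the opposite strand and the use of strand in counting is not given in the sources used here.

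**Figure D1:**
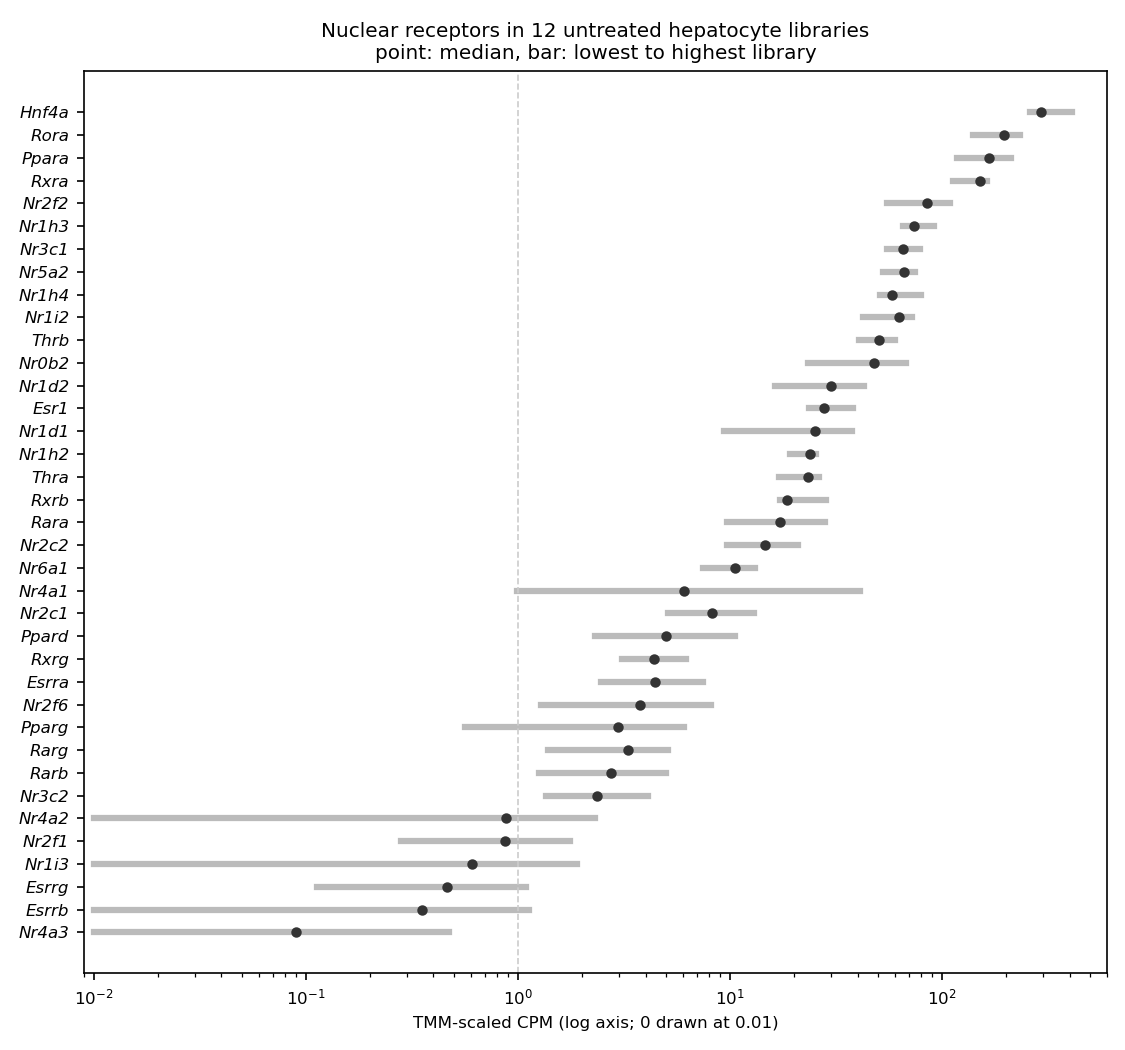
Levels of the 37 expressed nuclear receptors in the 12 untreated libraries, in TMM-scaled CPM on a log axis, ordered by mean. The point is the median and the bar runs from the lowest to the highest library, with 0 drawn at 0.01; Hnf4a is highest and the dashed line marks 1 CPM.

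In both models more members were called lower than higher, but the share of the family called lay above that of all genes after Yap induction and below it in the knockout. After Yap induction (ApoYap Dox against ApoYap ctrl) 18 of 37 members were lower and 11 higher at an adjusted p under 0.05, where over all genes tested 32.0% were lower and 35.0% higher, 67.0% in all. The 29 called members make 78.4% of the family, and the 11 higher include Nr4a3 and Esrrb. Both met the expression rule mainly through ApoYap Dox and Lats1/2 KO libraries, so their place in this count was not independent of that rule. The 18 lower include Esrrg, which met the rule only through 1 ApoYap ctrl and 2 BL/6 AAV-Cre libraries, with the same limit in part. After the Lats1/2 knockout (Lats1/2 KO against Lats1/2 flox ctrl) 9 of 37 were lower and 1 higher, where over all genes 17.4% were lower and 20.6% higher, 38.0% in all. The 10 called members make 27.0% of the family. The median log2 fold change of the members was −0.40 after Yap induction and −0.35 in the knockout, against 0.07 and −0.03 over all genes tested. Setting Nr1i3, with 0 counts in ApoYap Dox, to the bound that 3 counts allow left the first median at −0.40. Calls come from the quasi-likelihood test of edgeR, adjusted by Benjamini-Hochberg over the 12970 genes. The samples are bulk RNA, so fewer cells of a type and less RNA per cell cannot be told apart.

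The scaling of the libraries matters for these counts. TMM raised the effective size of the ApoYap Dox libraries by factors of 1.68 to 1.84. Scaled by total counts alone, the median of all genes moved to 0.99 after Yap induction and to 0.44 in the knockout, and the members then split into 18 higher and 9 lower, and into 9 higher and 2 lower. All changes below are relative to the TMM scaling, and called members whose direction flips without it are named as such. Total counts alone also ended the calls of Nr1h4, Nr3c2, Nr5a2, Rxrg and Thrb after Yap induction and of Esr1, Hnf4a, Nr1h4, Nr2c1 and Nr3c1 in the knockout without turning their sign.

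The 2 comparisons share no control library. Called lower in both were Esr1, Hnf4a, Nr1h4, Nr2c1, Nr3c1, Nr5a2, Nr6a1 and Thrb, which makes 8 of the 18 lower after Yap induction and 8 of the 9 lower in the knockout. Over all genes 1989 were called lower in both, 48.0% of those lower after Yap induction and 88.1% of those lower in the knockout, so that the members' shares, 44.4% and 88.9%, lay near those of all genes. Rarg was called higher in both, 1 of 11 and 1 of 1, where over all genes 52.2% and 88.7% were shared. Nr1h3 was called in opposite directions, higher after Yap induction and lower in the knockout. Of the rest, 9 were called higher and 10 lower after Yap induction alone, and 8 were called in neither. The difference between the 2 effects, tested directly as knockout less Yap induction, was called for 13 members, 9 positive and 4 negative, where over all genes 17.4% were positive and 12.4% negative, 29.8% in all.

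**Figure D2:**
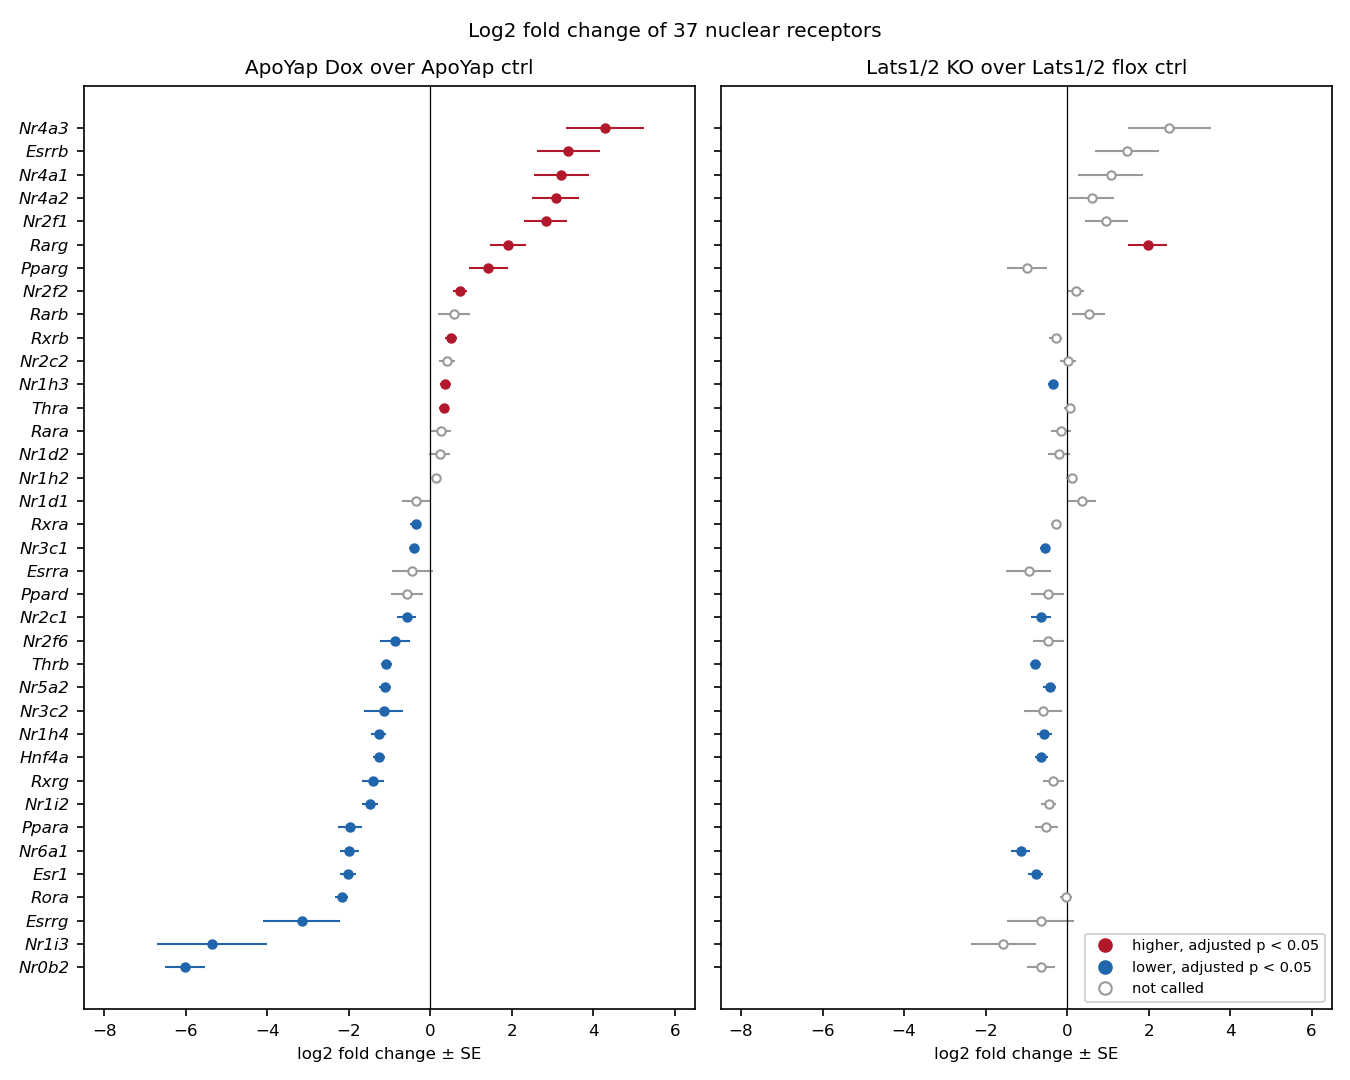
Log2 fold change with its standard error for the 37 members in ApoYap Dox over ApoYap ctrl (left) and Lats1/2 KO over Lats1/2 flox ctrl (right), ordered by the first. Filled points passed an adjusted p of 0.05; 18 members lie lower and 11 higher on the left, and 9 lower and 1 higher on the right, and the Nr1i3 point on the left is a fitted value against 0 counts.

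Hnf4a and Nr5a2 fell in both models, while Nr2f2 rose in one. Hnf4a, the receptor that sustains the hepatocyte programme, reached 107, 129.8 and 97.2 CPM in ApoYap Dox, against 278, 259, 274 and 267 CPM in ApoYap ctrl, and fell by 1.27 on the log2 scale (adjusted p = 5.9e-08, SE 0.15). In the knockout it stood at 209.8, 203 and 268 CPM in Lats1/2 KO, against 312, 409.6, 363 and 321 CPM in Lats1/2 flox ctrl, and fell by 0.63 (adjusted p = 0.0016, SE 0.15). Neither pair of groups overlapped, and the fall was smaller in the knockout by 0.64 (adjusted p = 0.021, SE 0.21), a call lost without ApoYap Dox 3 or Lats1/2 KO 3. Nr5a2, or LRH-1, which supports bile acid and cholesterol genes, had 27.3, 30.4 and 24.6 CPM in ApoYap Dox, against 61.03, 54.7, 53.4 and 69.3 CPM in ApoYap ctrl. All ApoYap Dox libraries lay below the controls, with a fall of 1.12 (adjusted p = 3.1e-07, SE 0.15), and in the knockout, at 50.4, 39.1 and 52.2 CPM in Lats1/2 KO, against 66.9, 61.3, 73.4 and 52.9 CPM in Lats1/2 flox ctrl, Nr5a2 fell by 0.43 (adjusted p = 0.022, SE 0.15), a call lost with RLE scaling, with DESeq2 and without Lats1/2 KO 2 or Lats1/2 flox ctrl 3, and at 0.03 with total counts alone. Nr2f2, or COUP-TFII, which is also a factor of endothelial and stromal cells, went the other way after Yap induction. It had 96.5, 99.3 and 145 CPM in ApoYap Dox, against 62.9, 62.9, 65.3 and 82.9 CPM in ApoYap ctrl, with no overlap, and rose by 0.73 (adjusted p = 0.0012, SE 0.18). In the knockout its difference was 0.22 and not called. Net of doxycycline the difference of Nr2f2 was 0.49 and not called (adjusted p = 0.11). Its mean was 68.5 CPM in ApoYap ctrl, against 90.3 CPM in BL/6 ctrl and 106.8 CPM in BL/6 Dox. The median rise of the endothelial markers in those ApoYap Dox libraries was 2.89.

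Nr0b2 had the deepest fall of the family, and the bile acid receptor Nr1h4 a smaller one. Nr0b2, or SHP, a receptor with no DNA-binding domain that represses bile acid synthesis and is itself induced by the bile acid receptor FXR, gave 1.08, 0.226 and 0.772 CPM in ApoYap Dox, against 32.1, 57.9, 51.2 and 44.9 CPM in ApoYap ctrl. It was nearly gone from all 3 ApoYap Dox libraries, a fall of 6.01 (adjusted p = 1.1e-09, SE 0.49). In the knockout the values overlapped, at 25.2, 21.6 and 20.9 CPM in Lats1/2 KO, against 29.6, 53.3, 23.3 and 33.7 CPM in Lats1/2 flox ctrl (−0.64, adjusted p = 0.16), and the difference between the 2 effects was 5.37 (adjusted p = 8.5e-07, SE 0.58). Nr1h4, which encodes FXR, fell by less. It had 21.3, 33.1 and 19.9 CPM in ApoYap Dox, against 54.3, 65.4, 61.4 and 58.8 CPM in ApoYap ctrl, a fall of 1.27 (adjusted p = 2.3e-06, SE 0.19). In Lats1/2 KO it had 36.8, 33.9 and 53.99 CPM, against 51.02, 61.2, 80.04 and 53.2 CPM in Lats1/2 flox ctrl, a fall of 0.56 (adjusted p = 0.021, SE 0.19). Lats1/2 KO 3 overlapped the control range there, and the call was lost when Lats1/2 KO 1, Lats1/2 KO 2 or Lats1/2 flox ctrl 3 was left out.

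The promoter of Nr0b2 is shown because this gene had the largest fold change of the family. It lies at chr4:133553126-133553375 (plus strand, GRCm38.p6, from RefSeq) and ends at the base before the annotated start. The capitals mark an E-box, CACGTG, which begins 195 bases before the start.
Nr0b2: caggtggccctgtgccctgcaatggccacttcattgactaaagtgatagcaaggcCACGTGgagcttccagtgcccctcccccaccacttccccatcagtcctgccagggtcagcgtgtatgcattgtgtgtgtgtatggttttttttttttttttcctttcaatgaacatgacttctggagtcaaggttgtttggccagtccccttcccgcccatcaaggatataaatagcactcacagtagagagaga
The E-box is a palindrome bound by clock and other basic helix-loop-helix factors, and it stood in 4 of 58 promoters of the 38 members that matched, against 6.02% of 32851 mouse promoters of the same 250 bases. The nuclear receptor hexamer AGGTCA, searched on both strands, stood in 11 of the 58, against 14% of all, and is not in this window of Nr0b2. These matches describe letters and not binding.

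The oxysterol receptor Nr1h3 went opposite ways in the 2 models. Nr1h3, or LXRα, the sensor of oxysterols in hepatocytes and macrophages, had 107, 93.1 and 123 CPM in ApoYap Dox, against 80.3, 91.6, 82.1 and 78.8 CPM in ApoYap ctrl, all above the controls, and rose by 0.37 (adjusted p = 0.012, SE 0.13). In the knockout it had 53.4, 58.8 and 54.7 CPM in Lats1/2 KO, against 69.2, 68.7, 73.2 and 73.4 CPM in Lats1/2 flox ctrl, all below the controls, and fell by 0.35 (adjusted p = 0.032, SE 0.13). The effects differed by −0.73 (adjusted p = 0.0035, SE 0.18). Each single call is close to its limit, since the rise was lost without ApoYap Dox 3 and the fall without any 1 of 5 libraries or with RLE scaling, DESeq2 or no filter, while the difference between the 2 effects was called under every alternative run other than a fold threshold. With total counts alone Nr1h3 was 0.12 higher in the knockout and not called. Nr1h2, or LXRβ, which most cell types express, did not pass in either comparison (0.14 and 0.11). Macrophage markers were higher in both models, by medians of 5.67 and 2.81.

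The receptors of foreign compounds fell after Yap induction. Nr1i2, or PXR, which induces drug-metabolising enzymes, had 15.03, 21.3 and 15.4 CPM in ApoYap Dox, against 53.3, 47.9, 42.4 and 48.9 CPM in ApoYap ctrl. The groups lay far apart, with a fall of 1.48 (adjusted p = 2.7e-07, SE 0.19). Among the knockout libraries Nr1i2 had 61.6, 37.6 and 45.3 CPM in Lats1/2 KO, against 61.3, 64.3, 66.9 and 70.1 CPM in Lats1/2 flox ctrl, where Lats1/2 KO 1 overlapped the controls, and the difference of −0.45 did not pass (adjusted p = 0.058). The effects on Nr1i2 differed by 1.03 (adjusted p = 0.0041, SE 0.26). Nr1i3, or CAR, had 0 counts in the 3 ApoYap Dox libraries, against 19 counts in the 4 ApoYap ctrl libraries, of which 1 was also at 0. It was called lower in ApoYap Dox (adjusted p = 0.0013), by 9.77-fold if 3 counts over the group are taken as the floor and the control counts as exact. The ratio of ApoYap Dox to ApoYap ctrl after scaling was 0, with 0 to 0.139 by counting error at 95%. Nr1i3 was not called in the knockout (−1.56, adjusted p = 0.13). The 3304 exon bases it shares with Tomm40l limit these values too.

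The fatty acid receptors split by subtype. Ppara, which drives fatty acid oxidation in the fasting liver, had 39.6, 55.2 and 30.4 CPM in ApoYap Dox, against 211, 163, 135 and 148 CPM in ApoYap ctrl, and fell by 1.97 with no overlap (adjusted p = 5.0e-06, SE 0.30). Loss of Lats1/2 gave Ppara values of 89.95, 79.2 and 225 CPM in Lats1/2 KO, against 169, 184, 210.4 and 188 CPM in Lats1/2 flox ctrl. Lats1/2 KO 3 lay above every control while the other 2 lay below every control, and the fold change of −0.51 was not called (adjusted p = 0.16). Without Lats1/2 KO 3 it was −1.15 with adjusted p = 0.00038. The effects on Ppara differed by 1.46 (adjusted p = 0.008, SE 0.40), or by 0.83 without Lats1/2 KO 3. Pparg, the receptor of adipocytes and of macrophages, had 3.29, 2.99 and 5.94 CPM in ApoYap Dox, against 0.565, 2.18, 1.77 and 1.60 CPM in ApoYap ctrl, all above, and rose by 1.42 (adjusted p = 0.011, SE 0.48), a call lost without ApoYap Dox 3. In the knockout it had 0.778, 1.71 and 3.29 CPM in Lats1/2 KO, against 4.39, 2.84, 6.07 and 2.56 CPM in Lats1/2 flox ctrl, with overlap (−0.99, adjusted p = 0.11). Between the 2 models Pparg differed by −2.41 (adjusted p = 0.0092, SE 0.68), or by −3.05 without Lats1/2 KO 3. Ppard, which is expressed widely, was called in neither (−0.57 and −0.48), and total counts alone turned the sign of both.

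Of the clock receptors the activator fell and the repressors did not pass. Rora, which activates the clock gene Arntl, had 49.6, 43.7 and 35.1 CPM in ApoYap Dox, against 206, 188, 182 and 203 CPM in ApoYap ctrl, a fall of 2.18 (adjusted p = 1.6e-11, SE 0.16). For the knockout Rora had 216, 167 and 150.2 CPM in Lats1/2 KO, against 195, 172, 141 and 215 CPM in Lats1/2 flox ctrl, with overlapping groups and a log2 fold change of −0.03, whose sign turned under several alternatives. The difference between the 2 effects, 2.16 (adjusted p = 4.3e-08, SE 0.21), was among the largest of the family. Nr1d1 and Nr1d2, the REV-ERB repressors of the same clock gene, were called in neither comparison. Nr1d1 had 21.1, 26.3 and 19.6 CPM in ApoYap Dox, against 29.2, 26.2, 23.3 and 35.8 CPM in ApoYap ctrl, and 16.7, 15.3 and 37.2 CPM in Lats1/2 KO, against 29.8, 9.43, 21.9 and 11.04 CPM in Lats1/2 flox ctrl. Lats1/2 KO 3 held the highest Nr1d1 and Nr1d2 values of its group. Both genes oscillate over the day, and the labels give no time of sampling. The exons of Nr1d1 share 263 bases with those of Thra on the opposite strand.

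Among the hormone receptors the thyroid pair split. Thrb, the main thyroid hormone receptor of hepatocytes, had 20.9, 23.2 and 19.3 CPM in ApoYap Dox, against 47.4, 47.2, 43.7 and 40.7 CPM in ApoYap ctrl, and fell by 1.08 (adjusted p = 6.4e-08, SE 0.13). The knockout libraries held Thrb at 37.5, 27.5 and 34.9 CPM in Lats1/2 KO, against 60.2, 57.2, 56.3 and 54.04 CPM in Lats1/2 flox ctrl, and the gene fell by 0.78 (adjusted p = 4.5e-05, SE 0.13). Both falls showed no overlap of groups, and that in the knockout was called under every alternative other than the fold threshold. Thra, the subtype of heart and many other cells, had 30.1, 28.2 and 33.5 CPM in ApoYap Dox, against 25.5, 24.6, 22.6 and 24.1 CPM in ApoYap ctrl, and rose by 0.34 (adjusted p = 0.017, SE 0.12), a call lost without ApoYap Dox 3. In the knockout its difference was 0.06 and not called.

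The steroid receptors fell where they were called. Esr1, the estrogen receptor α, had 6.25, 7.78 and 5.89 CPM in ApoYap Dox, against 24.4, 23.9, 29.5 and 30.98 CPM in ApoYap ctrl, and fell by 2.03 (adjusted p = 3.3e-09, SE 0.20). Esr1 in the knockout had 18.3, 16.2 and 16.3 CPM in Lats1/2 KO, against 25.7, 38.2, 23.7 and 27.8 CPM in Lats1/2 flox ctrl, all below the controls, and fell by 0.77 (adjusted p = 0.0028, SE 0.19). Its fall was smaller in the knockout by 1.26 (adjusted p = 0.00098, SE 0.27). Nr3c1, the glucocorticoid receptor, had 48.9, 43.1 and 50.4 CPM in ApoYap Dox, against 64.2, 64.9, 57.2 and 64.1 CPM in ApoYap ctrl, and 56.4, 50.6 and 46.8 CPM in Lats1/2 KO, against 74.7, 74.8, 78.5 and 70.5 CPM in Lats1/2 flox ctrl. It fell by 0.40 (adjusted p = 0.0081, SE 0.13) and by 0.54 (adjusted p = 0.0018, SE 0.13) without overlap, but with total counts alone it was 0.52 higher after Yap induction. Nr3c2, the mineralocorticoid receptor, had 0.506, 2.08 and 0.724 CPM in ApoYap Dox, against 1.91, 2.18, 3.53 and 2.21 CPM in ApoYap ctrl. The groups overlapped through ApoYap Dox 2, and it fell by 1.15 after Yap induction (adjusted p = 0.037, SE 0.48), or by 1.99 without that library, a call lost with RLE scaling, with DESeq2 and without ApoYap Dox 1, ApoYap Dox 3 or ApoYap ctrl 3. It was not called in the knockout (−0.59).

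The retinoid receptors held the member that rose in both models. Rarg, a retinoic acid receptor best known from skin and cartilage, had 11.5, 9.18 and 16.2 CPM in ApoYap Dox, against 3.11, 1.76, 3.22 and 5.11 CPM in ApoYap ctrl, and rose by 1.90 (adjusted p = 0.00079, SE 0.45). The same gene had 7.61, 14.03 and 4.83 CPM in Lats1/2 KO, against 3.51, 2.61, 1.43 and 1.38 CPM in Lats1/2 flox ctrl, and rose by 1.98 (adjusted p = 0.0025, SE 0.48). Neither pair of groups overlapped, both calls held under every alternative run for these 2 comparisons, and the difference between the 2 effects was not called. Rara and Rarb were called in neither comparison, and the exons of Rarb share 1793 bases with Top2b on the opposite strand. The macrophage and endothelial markers named above were higher in the same libraries.

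The RXR partners moved unequally. Rxra, the main partner in hepatocytes, had 112, 129 and 133 CPM in ApoYap Dox, against 159.9, 164, 157 and 157 CPM in ApoYap ctrl, and fell by 0.36 (adjusted p = 0.016, SE 0.13), which total counts alone turned into a rise of 0.56 and which was lost with RLE scaling, with DESeq2 and without ApoYap Dox 1. Rxrb, expressed widely, had 22.7, 24.5 and 28.2 CPM in ApoYap Dox, against 17.8, 17.6, 17.2 and 18.05 CPM in ApoYap ctrl, and rose by 0.51 (adjusted p = 0.0055, SE 0.15). In BL/6 mice given the doxycycline and sucrose water Rxrb also lay above every control, at 23.4, 35.7, 23.6 and 25.3 CPM in BL/6 Dox, against 18.9, 20.5, 17.8 and 21.6 CPM in BL/6 ctrl (0.45, adjusted p = 0.22), and net of doxycycline its difference was 0.05 (adjusted p = 0.86). Rxrg had 1.66, 2.35 and 1.64 CPM in ApoYap Dox, against 5.58, 3.44, 5.51 and 5.61 CPM in ApoYap ctrl, and fell by 1.41 (adjusted p = 3.9e-05, SE 0.26). None of the 3 was called in the knockout (−0.27, −0.28 and −0.34 for Rxra, Rxrb and Rxrg). The effects on Rxrb and Rxrg differed between the models by −0.79 (adjusted p = 0.0082, SE 0.22) and 1.08 (adjusted p = 0.028, SE 0.37), the second being lost without any 1 of 7 libraries (ApoYap Dox 1, ApoYap Dox 3, ApoYap ctrl 1, Lats1/2 KO 1, Lats1/2 KO 3, Lats1/2 flox ctrl 3 and Lats1/2 flox ctrl 4).

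The NR4A receptors, immediate early genes that act without a known ligand, were all called higher after Yap induction. Nr4a3 met the expression rule only through 2 ApoYap Dox and 1 Lats1/2 KO library, so its rise adds no independent support. Nr4a1 had 28.9, 52.5 and 86.6 CPM in ApoYap Dox, against 3.25, 4.78, 9.24 and 7.32 CPM in ApoYap ctrl, and rose by 3.21 (adjusted p = 0.00036, SE 0.68). Nr4a2 had 3.54, 3.08 and 7.58 CPM in ApoYap Dox, against 0.353, 0.671, 0.935 and 0.301 CPM in ApoYap ctrl, and rose by 3.07 (adjusted p = 3.8e-05, SE 0.57). Nr4a3 gave 97 counts in ApoYap Dox, against 3 in ApoYap ctrl, which gives a ratio after scaling of 21.0, with 6.96 to 103 by counting error at 95% (adjusted p = 0.00038, SE 0.96). Its values were 0.470, 0.633 and 3.38 CPM in ApoYap Dox, against 0.0706, 0, 0 and 0.201 CPM in ApoYap ctrl, and the fitted log2 rise of 4.28 was 2.87 without ApoYap Dox 3 and 5.29 without ApoYap ctrl 4. All 3 were highest in ApoYap Dox 3, the library with the largest macrophage sum, and none of their groups overlapped. In the knockout none was called, with log2 differences of 1.07, 0.60 and 2.51 for Nr4a1, Nr4a2 and Nr4a3, and Nr4a1 at 7.61, 7.25 and 0.583 CPM in Lats1/2 KO, against 3.18, 2.73, 2.74 and 0.986 CPM in Lats1/2 flox ctrl. The rise of Nr4a2 was larger after Yap induction, with knockout less Yap induction at −2.47 (adjusted p = 0.022, SE 0.80), a call lost without ApoYap Dox 3, Lats1/2 KO 3 or Lats1/2 flox ctrl 1. The part of the macrophage signal in these rises was not tested.

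The promoters of Nr4a1 and Nr4a3 are shown because both were called higher after Yap induction, Nr4a3 with the limit above, and both carry TEAD letters. These are the core letters bound by the TEAD partners of Yap, GGAATG or its reverse CATTCC, given in capitals. No other member called higher after Yap induction had such letters in a listed promoter. Nr4a1 lies at chr15:101266596-101266845 and Nr4a3 at chr4:48045055-48045304, both on the plus strand of GRCm38.p6, from RefSeq, and each ends at the base before the annotated start.
Nr4a1: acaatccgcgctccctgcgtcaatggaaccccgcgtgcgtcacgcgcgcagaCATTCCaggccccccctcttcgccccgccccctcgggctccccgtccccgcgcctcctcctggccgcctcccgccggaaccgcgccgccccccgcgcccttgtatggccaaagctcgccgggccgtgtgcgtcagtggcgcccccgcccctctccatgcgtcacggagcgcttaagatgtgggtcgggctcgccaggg
Nr4a3: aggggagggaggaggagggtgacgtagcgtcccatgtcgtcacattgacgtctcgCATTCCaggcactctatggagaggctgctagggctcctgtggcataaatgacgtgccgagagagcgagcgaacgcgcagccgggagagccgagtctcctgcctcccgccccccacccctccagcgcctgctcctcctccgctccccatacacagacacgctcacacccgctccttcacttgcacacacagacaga
The match begins 198 bases before the start of Nr4a1 and 195 bases before that of Nr4a3, and the listed promoter of Nr4a2 has none. TEAD letters stood in 8 of 58 member promoters, against 12.6% of all 32851, so their share in the family lay near that of all promoters. Among the other promoters with such letters were those of Esr1, Esrrg, Nr5a2 and Thrb, which fell after Yap induction, and those of Rarb and Nr1d2, which were not called.

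The remaining orphan receptors went both ways. Nr2f1, or COUP-TFI, had 4.05, 2.99 and 6.03 CPM in ApoYap Dox, against 0.283, 0.671, 0.312 and 1.20 CPM in ApoYap ctrl, and rose by 2.83 (adjusted p = 4.1e-05, SE 0.53). Esrrb, an estrogen-related receptor known from pluripotent cells, had 1.16, 2.44 and 1.40 CPM in ApoYap Dox, against 0.353, 0, 0.104 and 0.100 CPM in ApoYap ctrl, and rose by 3.38 (adjusted p = 0.00041, SE 0.77), or by 4.49 without ApoYap ctrl 1. Esrrb met the expression rule mainly through ApoYap Dox and Lats1/2 KO libraries, so its rise was not independent of that rule. In the knockout the log2 differences were 0.96 and 1.47 for Nr2f1 and Esrrb, and neither was called. Nr6a1, or GCNF, a repressor known from germ and embryonic stem cells, had 2.38, 3.03 and 2.65 CPM in ApoYap Dox, against 10.1, 12.2, 7.48 and 13.1 CPM in ApoYap ctrl, and fell by 1.99 (adjusted p = 8.9e-08, SE 0.24). In the knockout it had 3.89, 3.08 and 5.41 CPM in Lats1/2 KO, against 7.57, 12.3, 8.93 and 7.89 CPM in Lats1/2 flox ctrl, the largest fall among the members called there at 1.14 (adjusted p = 0.00063, SE 0.24). No groups overlapped for Nr6a1, and both falls were called under every alternative run. Esrrg, a partner of metabolic coactivators, was low throughout and fell by 3.16 after Yap induction (adjusted p = 0.005, SE 0.95), with 0.0723, 0.0452 and 0.0483 CPM in ApoYap Dox, against 0.424, 1.09, 0.312 and 0.501 CPM in ApoYap ctrl. Esrrg met the expression rule only through 1 ApoYap ctrl and 2 BL/6 AAV-Cre libraries, so its fall was not independent of that rule.

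Nr2c1 and Nr2f6, orphan receptors that mostly repress, had weak falls. Nr2c1 had 5.93, 6.29 and 4.92 CPM in ApoYap Dox, against 11.4, 5.11, 9.66 and 8.02 CPM in ApoYap ctrl, with overlap, and 5.62, 3.63 and 5.73 CPM in Lats1/2 KO, against 7.57, 8.40, 8.10 and 7.10 CPM in Lats1/2 flox ctrl, without. It fell by 0.58 after Yap induction (adjusted p = 0.026, SE 0.23) and by 0.64 in the knockout (adjusted p = 0.035, SE 0.24). Nr2f6, whose exons share 1622 bases with Ocel1 on the opposite strand, had 1.30, 2.08 and 2.41 CPM in ApoYap Dox, against 2.40, 3.35, 4.88 and 3.41 CPM in ApoYap ctrl, where ApoYap Dox 3 overlapped the lowest control, and fell by 0.86 after Yap induction (adjusted p = 0.044, SE 0.37). Each of these calls was lost with RLE scaling and with DESeq2. That of Nr2c1 was also lost without ApoYap Dox 3, ApoYap ctrl 1 or ApoYap ctrl 3 in the Yap comparison and without Lats1/2 KO 2, Lats1/2 flox ctrl 2 or Lats1/2 flox ctrl 3 in the knockout, and that of Nr2f6 without any 1 of 5 libraries (ApoYap Dox 1, ApoYap Dox 2, ApoYap ctrl 2, ApoYap ctrl 3 and ApoYap ctrl 4). With total counts alone both genes were higher after Yap induction, by 0.33 and 0.05, and not called. Nr2c2 and Esrra were called in neither comparison.

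The 3 libraries of a treated group did not change alike. Among the 11 members called higher after Yap induction 10 had their highest ApoYap Dox value in ApoYap Dox 3 and 1 in ApoYap Dox 2. The macrophage sum was also highest in ApoYap Dox 3, at 20618 CPM, against 12240 and 11750 in the others. Among the 9 called lower in the knockout 7 had their lowest value in Lats1/2 KO 2, which also held the highest macrophage and endothelial sums of its group. Leaving out 1 library at a time, 8 to 13 members were called higher and 15 to 17 lower after Yap induction, and without ApoYap Dox 3 the calls of Nr1h3, Pparg and Thra were lost.

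**Figure D3:**
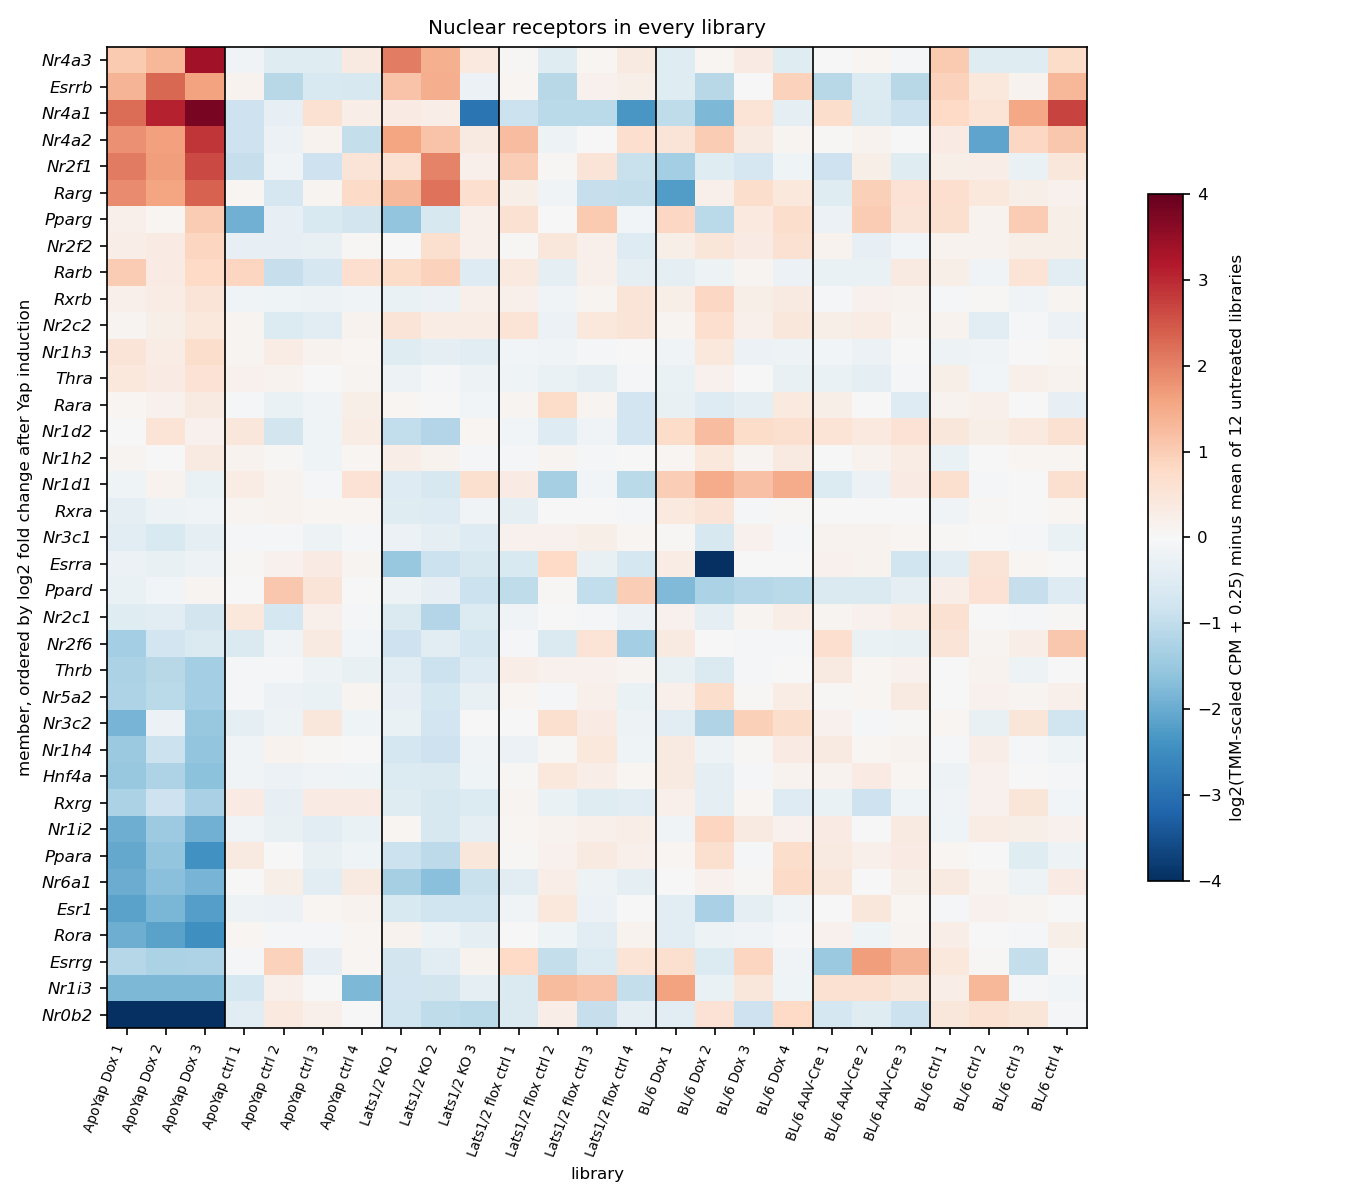
The 37 members (rows, ordered by fold change after Yap induction) in the 25 libraries (columns, grouped by black lines), as log2 of TMM-scaled CPM plus 0.25, minus the mean of the 12 untreated libraries. ApoYap Dox 3 holds the highest ApoYap Dox value in 10 of the 11 members called higher, and Lats1/2 KO 3 stands apart from the other knockout libraries in Nr4a1 and Ppara.

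Lats1/2 KO 3 differed from the other knockout libraries in several members. Without it 13 members were called lower and 2 higher, with Ppara, Pparg, Nr1d2, Rxra, Rxrb and Nr4a3 joining the calls and Nr1h3 leaving them. Its Nr4a1 value of 0.583 CPM and Rarg value of 4.83 CPM were the lowest of its group, and its Ppara value of 225 CPM the highest. Its macrophage sum of 912 CPM, endothelial sum of 408 CPM and hepatocyte sum of 56383 CPM lay between those of Lats1/2 KO 1 and Lats1/2 KO 2. Its stellate, neutrophil and cholangiocyte sums, at 224, 0.848 and 98.2 CPM, were the lowest of its group. The YAP target Ccn1 was also lowest there, at 48.8 CPM, against 122 and 118 CPM in the others. Ccn2 was highest there, at 149 CPM, against 62.5 and 135 CPM. The part of these differences in the receptor values was not tested. Without Lats1/2 KO 2 or without Lats1/2 flox ctrl 3 the number called lower was 5.

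**Figure D4:**
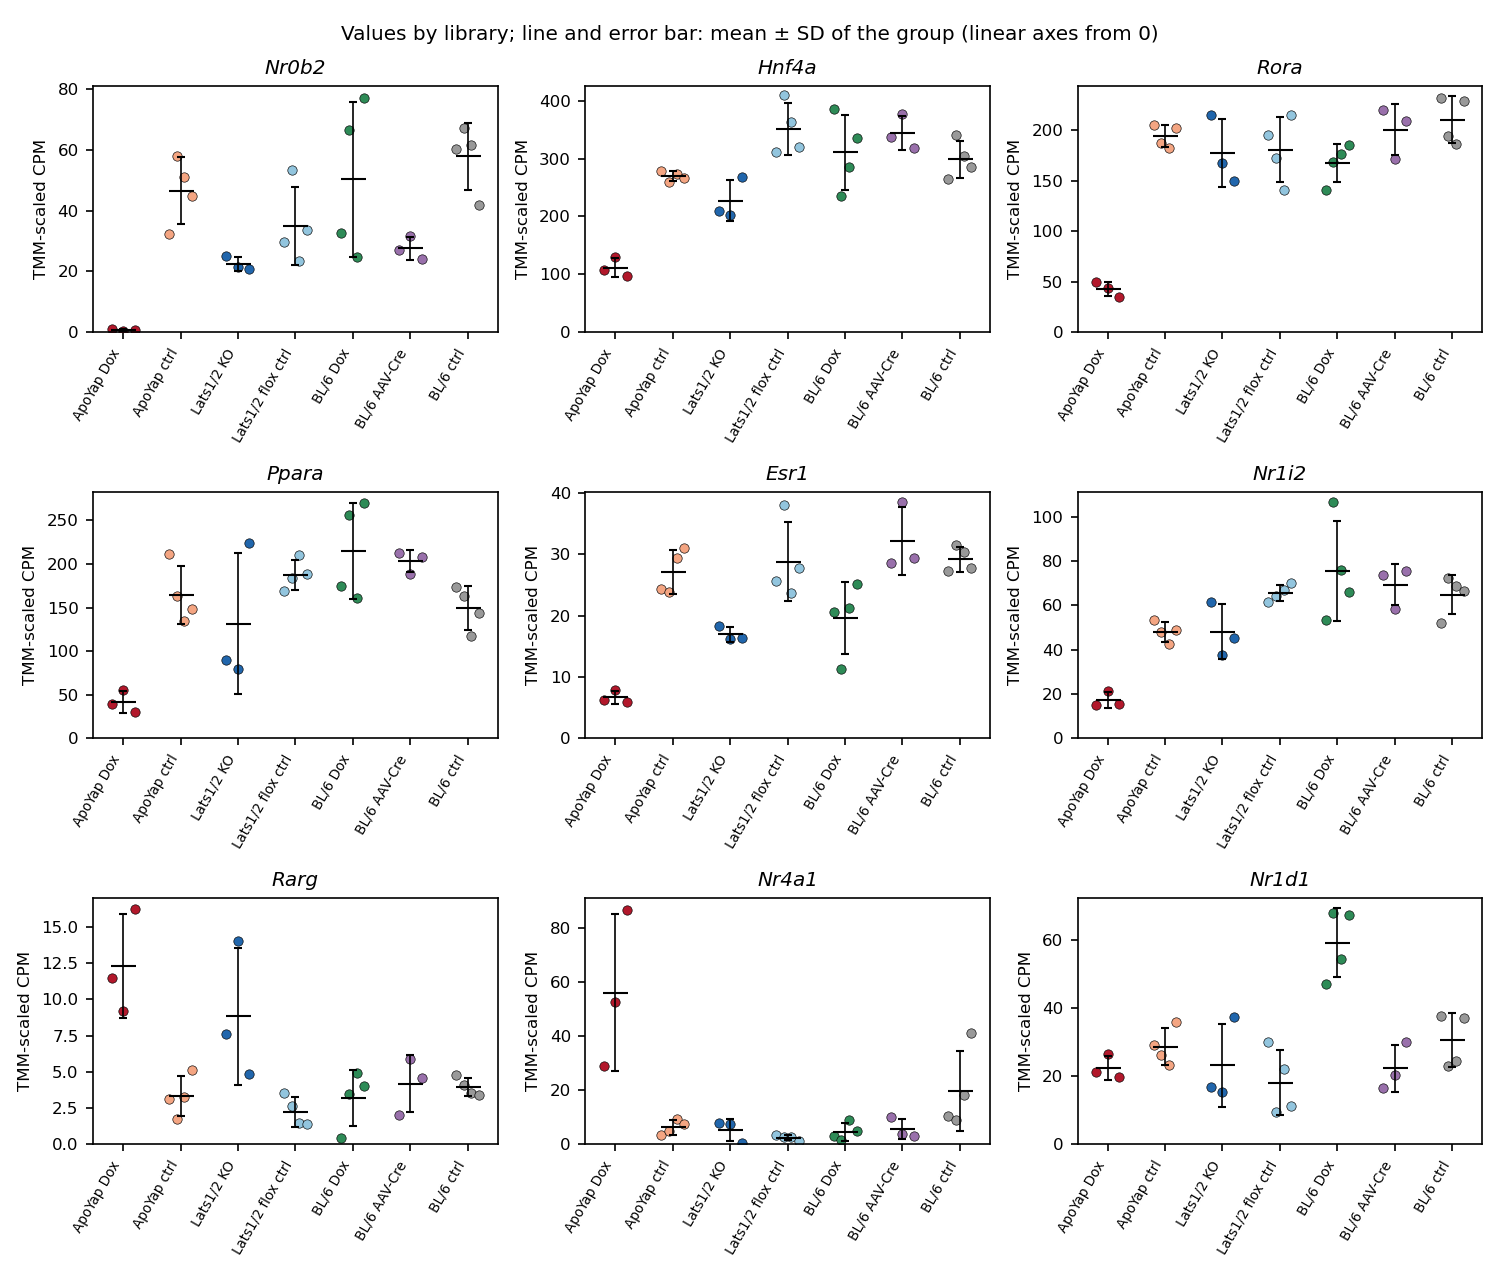
TMM-scaled CPM of 9 members in every library of the 7 groups, with the group mean and SD on linear axes from 0. Nr0b2, Hnf4a, Rora, Ppara, Esr1 and Nr1i2 have their lowest mean in ApoYap Dox, Rarg and Nr4a1 their highest there, and Nr1d1 its highest in BL/6 Dox.

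In the fit of all 25 libraries neither agent moved a member past the threshold in mice without the transgene or floxed alleles. Doxycycline and sucrose water in BL/6 mice (BL/6 Dox against BL/6 ctrl) gave 0 calls of 37 by edgeR and by DESeq2. Over all genes 0.0231% were higher and 0.100% lower, 0.123% in all. At an unadjusted p under 0.05 in edgeR 5 of the 37 were higher and 4 lower, larger shares than the 5.62% and 6.28% of all genes. Nr1d1 had 47.1, 67.6, 54.2 and 67.2 CPM in BL/6 Dox, against 37.6, 22.9, 24.3 and 36.95 CPM in BL/6 ctrl, with no overlap and a log2 difference of 0.95 (adjusted p = 0.24). Nr1d2 also lay above every control, at 43.9 to 65.98 CPM in BL/6 Dox, against 33.4 to 42.9 CPM in BL/6 ctrl. Their target Arntl fell by 1.57 in BL/6 Dox (adjusted p = 0.0054, SE 0.25), the only call among the clock targets there. Esr1 lay below every control, at 20.6, 11.3, 21.2 and 25.3 CPM in BL/6 Dox, against 27.3, 31.5, 30.4 and 27.7 CPM in BL/6 ctrl, without passing (adjusted p = 0.2). Nr4a1 was 2.82, 1.55, 8.96 and 4.66 CPM in BL/6 Dox, against 10.5, 8.95, 18.02 and 40.9 CPM in BL/6 ctrl, with a log2 difference of −2.07 (adjusted p = 0.23).

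The virus in BL/6 mice (BL/6 AAV-Cre against BL/6 ctrl) also gave 0 calls in that fit and by DESeq2. Over all genes 0.254% were higher and 0.0463% lower, 0.301% in all. At an unadjusted p under 0.05 in edgeR 0 of 37 members were higher and 4 lower, against 7.78% and 5.48% of all genes. Nr0b2 was one of these, with 26.9, 31.6 and 24.1 CPM in BL/6 AAV-Cre, against 60.4, 67.3, 61.7 and 41.9 CPM in BL/6 ctrl, no overlap and a log2 difference of −1.07 (adjusted p = 0.18), and it was called lower when edgeR was fitted to the compared groups only (−1.08, adjusted p = 0.0038). Esrrb had 1 count in BL/6 AAV-Cre, against 27 in BL/6 ctrl, which gives a ratio after scaling of 0.0499 (0.00122 to 0.303 by counting error at 95%). The others were Nr4a1 and Thra.

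Few members differed between untreated strains. ApoYap ctrl against BL/6 ctrl gave 0 calls of 37 in the fit of all libraries and by DESeq2. Over all genes 0.146% were higher and 0.293% lower, 0.439% in all. At an unadjusted p under 0.05 in edgeR 5 of the 37 were lower and 0 higher, against 3.94% and 3.58% of all genes. When edgeR was fitted to the compared groups only, 3 were called lower, Pparg (−1.50, adjusted p = 0.043), Nr1i2 (−0.43, adjusted p = 0.04) and Nr2f2 (−0.40, adjusted p = 0.034). Pparg was one of them, at 0.565, 2.18, 1.77 and 1.60 CPM in ApoYap ctrl, against 4.56, 3.10, 6.01 and 3.38 CPM in BL/6 ctrl (−1.50, adjusted p = 0.28). Its mean in ApoYap Dox was 4.07 ± 1.62 CPM, against 4.26 ± 1.32 CPM in BL/6 ctrl (SD, n = 3 and 4), a pair that was not tested. Lats1/2 flox ctrl against BL/6 ctrl had 6 members lower and 1 higher at an unadjusted p under 0.05 in edgeR, against 7.03% and 11.6% of all genes. That comparison gave 1 call, lower, where over all genes 3.15% were higher and 0.971% lower, 4.12% in all. This was Nr4a1, with 3.18, 2.73, 2.74 and 0.986 CPM in Lats1/2 flox ctrl, against 10.5, 8.95, 18.02 and 40.9 CPM in BL/6 ctrl (−3.03, adjusted p = 0.023, SE 0.73), a call lost without Lats1/2 flox ctrl 2, Lats1/2 flox ctrl 3, Lats1/2 flox ctrl 4 or BL/6 ctrl 4 and with the replicate number as a block. With the compared groups only and with DESeq2, Nr1d2 was called lower as well, at −0.80 (adjusted p = 0.0071) and −0.82 (adjusted p = 0.026).

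The effect of each agent in BL/6 mice was then subtracted. These contrasts reuse the treated and control libraries above, with BL/6 ctrl as a further common control, and are given as each member's own value. Yap induction net of doxycycline was called lower for 15 members and higher for 8, where over all genes 27.4% were lower and 26.7% higher, 54.1% in all. Examples were Nr0b2 at −5.80 (adjusted p = 4.5e-08, SE 0.57), Ppara at −2.50 (adjusted p = 1.4e-05, SE 0.39) and Nr4a1 at 5.28 (adjusted p = 0.00011, SE 0.96), the last being 4.63 without BL/6 ctrl 4 and 5.91 without BL/6 Dox 3. Nr1d1 was called there, at −1.31 (adjusted p = 0.024, SE 0.47; lost without ApoYap Dox 1 or ApoYap Dox 3), with a difference of −0.36 in the ApoYap strain and of 0.95 in BL/6 mice. Called after Yap induction but not net of doxycycline were Nr1h3, Nr2c1, Nr2f2, Nr2f6, Nr3c1, Nr3c2 and Rxrb. The knockout net of AAV-Cre was called lower for 6 members, Esr1, Hnf4a, Nr1h4, Nr3c1, Nr6a1 and Thrb, and higher for Rarg and Esrrb, where 24.4% of all genes were called, 11.4% as lower, while Nr1h3, Nr2c1 and Nr5a2 lost their calls. Thrb was at −0.99 (adjusted p = 0.00036, SE 0.18) and Rarg at 1.91 (adjusted p = 0.048, SE 0.69), the call of Rarg being lost in 11 of the single omissions. That of Nr1h4 was lost with RLE scaling, DESeq2, no filter, the replicate block and in several single omissions. The call of Esr1 was lost without BL/6 AAV-Cre 2. Esrrb was at 5.42, resting on 1 count in BL/6 AAV-Cre, and was not called in the knockout itself (1.47, adjusted p = 0.15). The virus acted for 24 hours in one arm and 1 week in the other, so time and genotype cannot be told apart in this contrast.

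The genes around the receptors were described from lists given by their members. Their counts stand against 32.0% of all genes lower and 35.0% higher after Yap induction, and 17.4% lower and 20.6% higher in the knockout. Among 11 genes of ligand enzymes and carriers 10 fell and 0 rose after Yap induction, with a median of −1.89, and 6 fell and 0 rose in the knockout, with a median of −0.73. Dio1, which activates thyroid hormone, was at −5.87 and −1.78, Hsd11b1, which regenerates glucocorticoid, at −4.72 and −1.35, and Fabp1, which carries fatty acids, at −6.45 and −1.33 in Yap induction and the knockout. Coregulators went both ways, 6 higher and 4 lower of 17 after Yap induction and 1 higher in the knockout, with medians of 0.04 and −0.02, shares near or below those of all genes in both. The coactivator Ncoa3 rose by 1.71 and the corepressor Nrip1 by 1.03 after Yap induction, while the coactivator Ppargc1a fell by 0.99.

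Known target genes of most receptors were largely lower after Yap induction, where 32.0% of all genes were lower and 35.0% higher, against 17.4% and 20.6% in the knockout. Of 10 HNF4A targets all fell, with a median of −2.97, and 9 fell in the knockout, with a median of −1.04, among them Ttr at −3.73 and −1.64 and Apoa2 at −5.45 and −1.29. All 8 FXR-induced genes fell after Yap induction (median −1.85) and 4 in the knockout (−0.45), with the bile salt export pump Abcb11 at −3.30 and −1.11. Both SHP-repressed genes, Cyp7a1 and Cyp8b1, which make bile acids, also fell after Yap induction, by 2.73 (adjusted p = 0.0067, SE 0.82) and 1.38 (adjusted p = 0.0012, SE 0.34), and neither was called in the knockout. Their fall stood beside that of Nr0b2, their repressor. Of 14 PPARα targets 9 fell and 3 rose (median −1.12), and in the knockout 6 fell and 2 rose (−0.60). The 3 that rose were Acot1, Vnn1 and the hormone gene Fgf21, at 1.59, 1.18 and 3.41 after Yap induction; Acot1 and Vnn1 also rose in the knockout.

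Other target lists followed. Of 9 CAR and PXR targets 6 fell and 1 rose after Yap induction (median −2.05) and 5 fell and 1 rose in the knockout (−1.23), with Cyp3a11 at −5.01 and −1.74. Cyp2c29 was at −7.61 and −3.30, and its reads may be shared with near-identical Cyp2c genes. All 4 thyroid hormone targets fell after Yap induction (median −2.54) and 3 in the knockout (−1.01), with the lipogenic gene Thrsp at −7.55 and −2.74, Me1 at −3.56 and −1.52, Klf9 at −1.53 and −0.22 and Gpd2 at −1.39 and −0.51. All 5 REV-ERB and ROR targets fell after Yap induction (median −2.38) and 1 in the knockout (−0.01), namely Cry1 at −1.12, and Arntl was at −1.22 after Yap induction. In BL/6 mice the doxycycline and sucrose water gave these targets a median of −0.66 and Arntl −1.57, and net of doxycycline 3 of the 5 were called lower, with a median of −1.27. Of 8 LXR targets 5 fell and 2 rose after Yap induction (median −0.95), and 3 fell and 2 rose in the knockout (−0.35). The risers were the same in both, Abcg1 at 5.10 and 2.46 and Mylip at 3.38 and 2.07, while the lipogenic Scd1 was at −4.82 and −1.32. Abcg1 is known as a sterol transporter of macrophages, whose markers had median rises of 5.67 and 2.81 there.

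Glucocorticoid and retinoic acid targets went both ways. Of 11 glucocorticoid targets 4 fell and 3 rose after Yap induction (median 0.22), and 1 fell and 3 rose in the knockout (0.87). Their median was also 0.87 in BL/6 AAV-Cre over BL/6 ctrl, and it was −0.25 for Yap induction net of doxycycline (3 lower, 3 higher) and −0.90 for the knockout net of AAV-Cre (2 lower, 1 higher). The kinase Sgk1 was at 3.69 and 1.65 and the chaperone Fkbp5 at 2.30 and 1.11. Of 5 retinoic acid targets 1 rose and 1 fell after Yap induction (median −0.40) and 2 rose in the knockout (0.80). Their medians were 0.85 net of doxycycline and 1.66 net of AAV-Cre, after −1.21 for doxycycline and −0.86 for the virus in BL/6 mice with 0 genes called. Tgm2 rose by 1.36 and 1.57, Lrat, which is also a stellate cell marker, was at 0.17 and 2.29, Dhrs3 at −0.47 and 0.11, and Cyp26a1 and Cyp26b1 were called in neither. Hepatocyte markers themselves fell in the same libraries, 8 of 8 after Yap induction with a median of −2.10 and 7 of 8 in the knockout with a median of −0.90, and the part of that in the target lists was not tested.

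**Figure D5:**
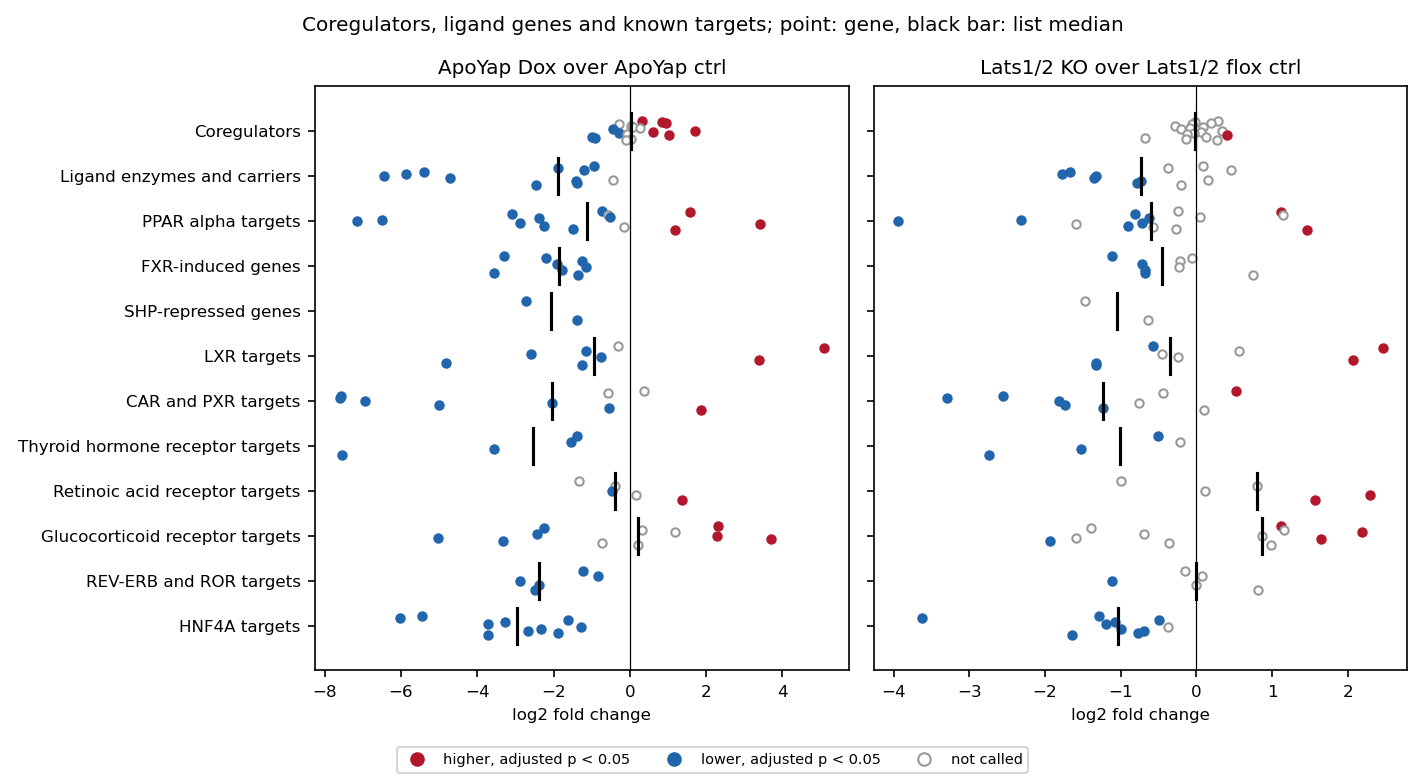
Log2 fold change of each tested gene in 12 lists of coregulators, ligand genes and receptor targets, for ApoYap Dox over ApoYap ctrl (left) and Lats1/2 KO over Lats1/2 flox ctrl (right), with the list median as a black bar. HNF4A targets, FXR-induced genes and thyroid hormone targets all lie below 0 on the left, while glucocorticoid targets lie on both sides.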

How the data were processed

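RNA from 25 samples of sorted mouse hepatocytes was read from its 3′ ends (QuantSeq). The authors deposited a table of raw counts per gene symbol, and the submitters' processing notes name FastQC, cutadapt and STAR 2.6.1d. The counting tool, its use of strand and its handling of reads that match several genes are steps not given in the sources used here. Genes that overlap or have near-identical copies are therefore uncertain.

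From the deposited counts, CPM was computed on the library total for the membership rule and on the TMM-scaled total for levels. edgeR 4.0.16 in R 4.3.3 was fitted to all 25 libraries with 1 mean for each of the 7 groups (filterByExpr with a minimum count of 10 and a minimum total of 15, quasi-likelihood test, two-sided). Adjustment was by Benjamini-Hochberg across 12970 genes, with calls under 0.05, for 9 comparisons. Standard errors were derived from the log2 fold change and its F value. The steps were tested on simulated data in which a small part of the genes was changed, as many up as down. Such data cannot check the scaling where 67.0% of all genes were called, as after Yap induction. Counting intervals are at 95%, cover counting error only, since PCR copies are not told apart from molecules. With 8107539 to 16515330 counts in a library, 1 count is worth 0.0361 to 0.141 scaled CPM.

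Alternatives were RLE scaling, total counts alone, no filter, the membership rule as filter, DESeq2 1.42.0, fits of the compared groups only, the replicate number as a block, a log2 threshold of 1, and leaving out single libraries or BL/6 Dox 1 and BL/6 Dox 2 together. The members, the lists of markers, coregulators and targets, and the tests were chosen with earlier results of these data known. Values in every sample are given for members called in either model that average 1 CPM or more in a compared group, for Esrrg and for some others, and from each list up to 4 genes with the smallest p, or all genes of a list of 5 or fewer. Promoters are the 250 bases before each RefSeq start in GRCm38.p6, for the 38 members that matched.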

Additional observations from a re-analysis of the deposited data

Results flagged for a closer look

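Each of the 37 members was examined in each group with 4 libraries, which gave 148 sets of 4 values. In 12 sets a value stood apart from the other 3 by Dixon's test, which chance gives in about 1 in 20 independent sets. Sets of different members came from the same libraries and are not independent. In BL/6 Dox, replicate 2 stood above the others in Nr1d2 at 65.98 CPM (others 43.9 to 47.5), in Nr1h3 at 100.3 CPM (63.2 to 68.4) and in Rxrb at 35.7 CPM (23.4 to 25.3), and replicate 1 in Nr2f6 at 4.79 CPM (3.50 to 3.69). In ApoYap ctrl, Rxrg was 3.44 CPM in replicate 2 (5.51 to 5.61), Nr3c1 57.2 CPM in replicate 3 (64.1 to 64.9) and Nr2f2 82.9 CPM in replicate 4 (62.9 to 65.3). In Lats1/2 flox ctrl, Rxra was 113 CPM in replicate 1 (144 to 149) and Esrrb 0 in replicate 2 (0.329 to 0.394). In BL/6 ctrl, replicate 1 had 19.2 CPM of Nr1h2 (23.6 to 24.4) and 12.97 CPM of Nr2c1 (7.89 to 8.68), and replicate 2 had 1.91 CPM of Nr1i3 (0.563 to 0.786).

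The effect of the doxycycline and sucrose water differed between the ApoYap strain and BL/6 mice for 23 members by the interaction term of the edgeR fit. The log2 difference was negative for Nr0b2 (−5.80), Nr1i3 (−5.51), Esrrg (−3.64), Ppara (−2.50), Nr6a1 (−2.11), Rora (−1.86), Nr1i2 (−1.70), Esr1 (−1.45), Nr1h4 (−1.43), Hnf4a (−1.33), Nr5a2 (−1.32), Nr1d1 (−1.31), Rxrg (−1.16), Thrb (−0.86) and Rxra (−0.61). It was positive for Thra (0.54), Pparg (1.62), Rarg (2.18), Nr4a2 (2.94), Nr2f1 (3.94), Esrrb (4.58), Nr4a1 (5.28) and Nr4a3 (5.55). The fitted values of Nr1i3, with 0 counts in ApoYap Dox, and of Nr4a3, with 3 counts in ApoYap ctrl, depend on the prior count.

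The effect of the Cre virus differed between floxed and BL/6 mice for 8 members, with unequal times after the virus. The log2 difference was −1.21 for Nr6a1, −0.99 for Thrb, −0.91 for Esr1, −0.84 for Hnf4a, −0.75 for Nr1h4, −0.73 for Nr3c1, 1.91 for Rarg and 5.42 for Esrrb, the last resting on 1 count in BL/6 AAV-Cre.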

How the results depend on the processing

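With total counts alone the members called higher and lower were 18 and 9 after Yap induction, 9 and 2 in the knockout, 17 and 6 for Yap induction net of doxycycline, 5 and 1 for the knockout net of AAV-Cre, and 4 and 10 for knockout less Yap induction, while the median of all genes shifted to 0.99, 0.44, 0.96, 0.42 and −0.45. It turned the sign after Yap induction of Ppard (0.35), Nr1d1 (0.56), Rxra (0.56, called), Nr2c1 (0.33), Nr2f6 (0.05), Esrra (0.48) and Nr3c1 (0.52, called), and, net of doxycycline, of Thrb (0.07) and Rxra (0.33). In the knockout it turned Rara (0.32), Ppard (0.01), Nr1d2 (0.23), Rora (0.44, called), Nr1h3 (0.12), Nr1i2 (0.01), Rxra (0.20), Rxrb (0.18), Rxrg (0.13), Nr2f6 (0.00) and Nr5a2 (0.03). Rora in the knockout was also 0.04 with RLE scaling, 0.02 with the replicate block, 0.04 with the compared groups only and 0.04 with DESeq2. A log2 threshold of 1 left 7 higher after Yap induction, 1 lower in the knockout, 1 lower net of AAV-Cre and 2 lower for knockout less Yap induction. Fits of the compared groups only gave 1 lower for the virus in BL/6 mice, 3 for the ApoYap strain and 2 for the floxed strain, where DESeq2 also gave 2, and no filter gave 1 higher net of AAV-Cre.

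Leaving out 1 library at a time gave 8 to 13 higher and 15 to 17 lower after Yap induction, 1 to 2 and 5 to 13 in the knockout, 0 to 1 lower for the floxed strain, 6 to 8 and 14 to 17 net of doxycycline, 1 to 3 and 5 to 7 net of AAV-Cre, 6 to 10 and 3 to 6 for knockout less Yap induction, and 0 in the other comparisons. The log2 difference in the knockout changed sign within the single omissions for Rara (−0.37 to 0.12, the positive value without Lats1/2 flox ctrl 2), Ppard (−0.72 to 0.12, positive without Lats1/2 flox ctrl 4), Nr1d1 (−0.17 to 0.72, negative without Lats1/2 KO 3), Nr1d2 (−0.72 to 0.02, positive without Lats1/2 KO 2), Rora (−0.19 to 0.08, positive in 4 omissions) and Nr2c2 (−0.13 to 0.10, negative without Lats1/2 KO 1 or Lats1/2 flox ctrl 2). Where a value moved, the cause was not tested.

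Same-numbered libraries correlated at 0.117, 0.046 and 0.152 in the Yap comparison and at −0.137, −0.224 and 0.053 in the knockout. Of these, only number 1 of the Yap comparison matched best with its own number. Numbers 1, 2 and 4 of the floxed strain also did so, at 0.248, 0.148 and 0.031, as did number 2 of the ApoYap strain, at 0.176. The other numbers of the strain, doxycycline and virus comparisons did not. Such small correlations cannot decide whether the replicate numbers pair the samples. With the replicate block the counts were 2 higher in the knockout, 0 lower for the floxed strain and 1 higher net of AAV-Cre. Of the members called, 8 of 11 higher and 9 of 18 lower after Yap induction, and 1 of 1 higher and 2 of 9 lower in the knockout, held under every scaling, filter, tool and omission run. The 8 include Nr4a3 and Esrrb, and the 9 include Esrrg, whose place was not independent of the expression rule. The 9 also include Nr1i3, with 0 counts in ApoYap Dox. Rxrb and Nr2f2, among the 8, were not called net of doxycycline. Depth limits Nr4a3, Esrrb, Esrrg and Nr1i3, which averaged under 1 CPM in untreated libraries.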
